A study of Homo sapiens with 59 samples.

Results

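The POU class III transcription factors are the 4 genes POU3F1, POU3F2, POU3F3 and POU3F4, taken by symbol from the 19084 gene symbols measured. POU3F1, POU3F2 and POU3F4 were among the 15305 genes with at least 1 TPM (a unit that scales reads for gene length and for the library's total) in at least 3 libraries, and POU3F3 was not. The members were chosen by their TPM across the exposure times of these libraries. Their levels and differences are therefore given as a description, without a test.

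Class III POU factors bind DNA through a POU-specific domain and a POU homeodomain joined by a flexible linker, and they recognise the octamer sequence and related sites. On many neural enhancers they sit next to a SOX protein of the SOXB1 group. POU3F1 (OCT6) acts in early neural commitment and in myelinating Schwann cells. POU3F2 (BRN2) and POU3F3 (BRN1) act in cortical progenitors and migrating neurons. POU3F2 is also one of the factors used to turn fibroblasts into neurons. POU3F4 (BRN4) acts in the inner ear and the developing neural tube.

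The data are 59 RNA-seq libraries of neural stem cells. The cells were differentiated from WA09 (H9), an established line of human embryonic stem cells. All cultures were plated with a ROCK inhibitor, received FGF8b at 200 ng/mL, and were then held in neuromesodermal medium with CHIR99021, an inhibitor of GSK3 that activates canonical WNT signalling. After 2 to 72 h on an automated platform the medium was changed to one with retinoic acid for 4 days, so a time here means how long CHIR99021 was present, not time in retinoic acid. Every 2 h was sampled up to 24 h and every 6 h after that, with libraries A1, A2 and B1 at each of the 20 times except 48 h, whose B1 library the submitters removed. Culture time grew with exposure, and all groups here had CHIR99021; cells that never received it were not analysed here. The labels do not say that A1, A2 and B1 were separate cultures, so SDs, SEs and p-values reflect library-to-library spread alone, and that spread may be technical.

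TPM keep no sequencing depth, so no counting interval is given and a value of 0 means only that the gene was listed at 0. Between 9348 and 13085 genes reached 1 TPM in a library (median 12594). Fewer than 10000 genes reached it in 3 libraries (72 h A2, 4 h B1 and 42 h B1), against at least 11004 in each of the others. All 3 listed POU3F1 and POU3F4 at 0, while POU3F2 was at 52.7, 6.35 and 53.4 TPM in them, so values without these libraries are added where they matter. Summed TPM of 10 markers of neural stem cells (SOX2, SOX1, PAX6, NES, VIM, CDH2, MSI1, HES5, FABP7 and PROM1) lay between 2094 and 4244 in the libraries of the 3 windows compared below. The sum was mostly CDH2 and VIM, with means of 2092 and 731 TPM at 2 to 8 h. PAX6, NES, MSI1 and PROM1 were above 0 in all 59 libraries. SOX1, HES5 and FABP7 had means of 1.30, 4.94 and 3.83 TPM at 2 to 8 h. Each of them, and SOX2, was at 0 in at least 1 library of those times.

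The family's members had different courses. POU3F2 was low after short exposure, higher from 12 h and highest after long exposure. POU3F1 had time-point means between 7.37 and 17.6 TPM up to 24 h, and was lower on average from 30 h on. POU3F4 was listed at 0 in nearly all libraries of 2 to 8 h, above 0 in most libraries from 10 h, and its highest means were at 36 and 20 h. POU3F3 was listed at 0 in 57 of 59 libraries. In bulk RNA, fewer cells of a type and less RNA per cell cannot be told apart.

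**Figure D1:**
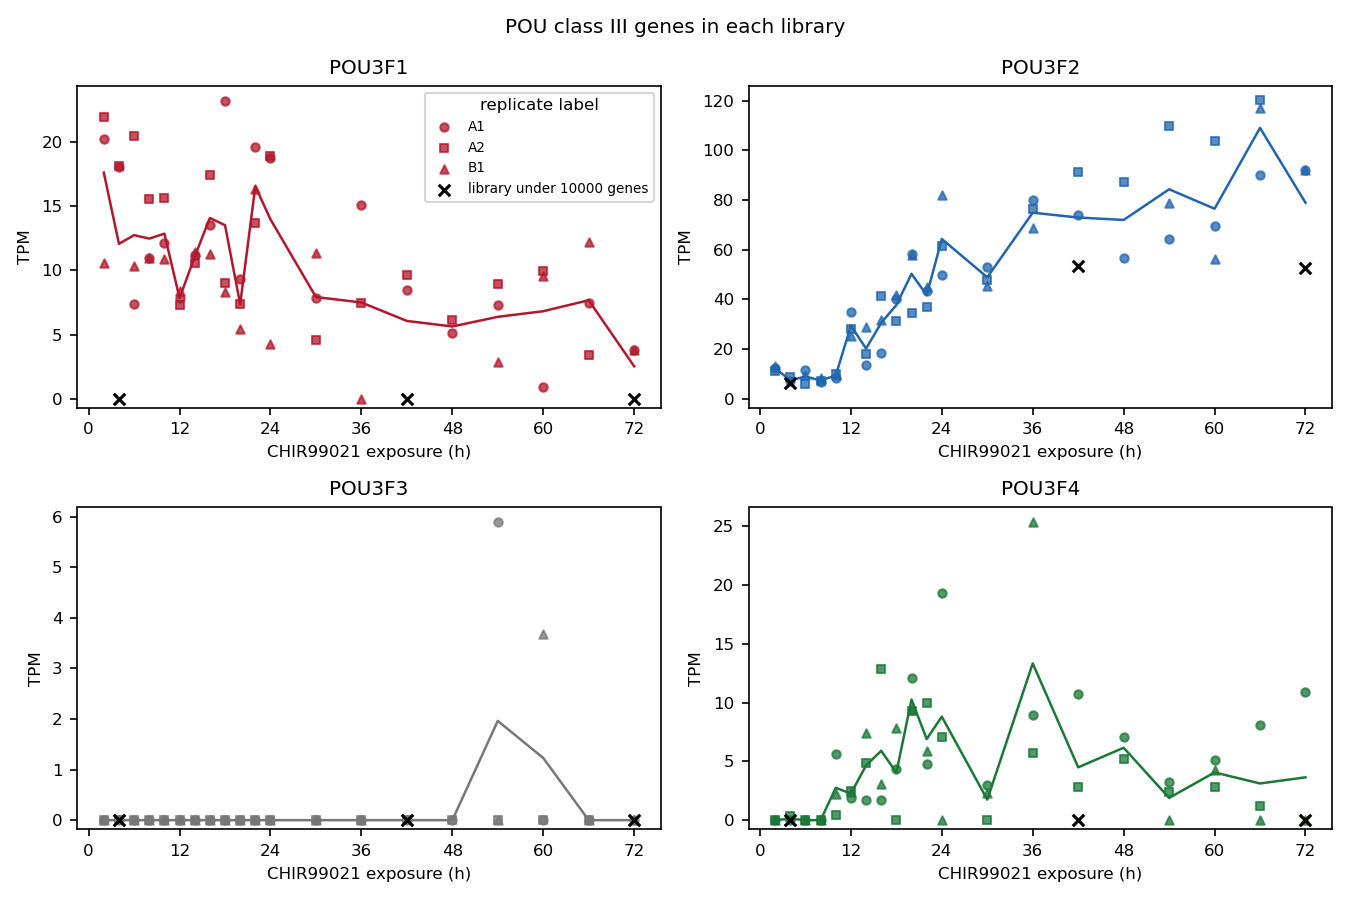
Level of each POU class III gene (TPM, linear axis with its own scale per panel) against hours of CHIR99021, with 1 point per library (shape by label, crosses for libraries with under 10000 genes) and a line through the time-point means. POU3F2 lies under 14 TPM before 12 h and has a highest mean of 109 TPM at 66 h, whereas POU3F1 stays under 24 TPM and POU3F3 is above 0 in 2 libraries.

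The stretches of DNA just upstream of the start sites of POU3F1, POU3F2 and POU3F4 are shown as a description. A link between letters in them and the courses of the genes was not tested. The 250 bases before each annotated start were taken from RefSeq (GRCh38.p14), in which all 4 genes were found by symbol. They are printed 5′ to 3′ on the gene's strand, with CCAAT (or ATTGG on the other strand) and the TCF/LEF core ATCAAAG (or CTTTGAT) in capitals.

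POU3F1, chr1:38046794-38047043, minus strand: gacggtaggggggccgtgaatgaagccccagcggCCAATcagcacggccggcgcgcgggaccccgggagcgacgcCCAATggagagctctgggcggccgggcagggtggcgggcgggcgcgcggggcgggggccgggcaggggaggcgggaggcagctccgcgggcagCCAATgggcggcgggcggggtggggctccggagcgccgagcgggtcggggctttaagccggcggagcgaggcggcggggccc

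POU3F2, chr6:98834324-98834573, plus strand: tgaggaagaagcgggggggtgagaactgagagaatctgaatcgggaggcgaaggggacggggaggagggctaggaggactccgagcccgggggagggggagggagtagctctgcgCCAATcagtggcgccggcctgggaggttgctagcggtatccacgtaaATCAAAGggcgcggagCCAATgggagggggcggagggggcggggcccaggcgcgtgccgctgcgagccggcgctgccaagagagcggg

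POU3F4, chrX:83508040-83508289, plus strand: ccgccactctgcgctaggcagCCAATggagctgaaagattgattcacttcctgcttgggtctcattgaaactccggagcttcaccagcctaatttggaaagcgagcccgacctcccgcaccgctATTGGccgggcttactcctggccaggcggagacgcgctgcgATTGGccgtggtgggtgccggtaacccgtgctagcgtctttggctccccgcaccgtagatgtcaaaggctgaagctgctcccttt

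A CCAAT box, the element bound by NF-Y, occurred 3 times before POU3F1, 2 times before POU3F2 and 3 times before POU3F4. The POU3F3 window also held 3. Of 35116 RefSeq promoter windows of the same length, 32.01% held at least 1 match and 2.927% held 3 or more. The ATCAAAG core, the sequence read by the TCF/LEF factors of WNT signalling, occurred only in the POU3F2 window, 88 to 82 bases before the start, and in 2.261% of all windows. Neither the octamer ATGCAAAT (1.632% of windows) nor TATAAA (10.72%), searched on both strands, was in any of the 4 windows. A match is a string of letters and not a binding site, and these libraries do not measure binding. GC content was 80.8% for POU3F1, 69.2% for POU3F2, 62% for POU3F3 and 60% for POU3F4, against a median of 58% over all windows.

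All 4 genes have a single exon in their GENCODE v29 models. Their coding sequences share stretches of the POU domain, which bears on how reads of 51 bases can be assigned. The longest run of identical bases between any 2 members lies in the coding sequence of POU3F1 and POU3F3 and is 83 bases long.

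POU3F1 and POU3F3: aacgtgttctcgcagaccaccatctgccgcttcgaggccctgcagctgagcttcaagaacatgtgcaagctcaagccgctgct

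Counting all their shared stretches, of which that run is the longest, POU3F1 and POU3F3 had 42 identical windows of 51 bases, out of 2134 in POU3F1 and 3014 in POU3F3. No other pair of members had an identical window of that length. Allowing 2 mismatches, 5.81% of POU3F1 windows, 5.34% of POU3F3 windows, 0.973% of POU3F2 windows and 0.341% of POU3F4 windows resembled another member. POU3F4 overlaps a gene model on the other strand, Z82170.1, with which it had 904 identical windows out of 3817. POU3F3 overlaps AC018730.2 on its own strand. Neither model was in the table of TPM. Values of POU3F1, POU3F3 and POU3F4 are uncertain where reads fall in such windows, since RSEM divides shared reads by estimation and whether reads were counted by strand is not stated.

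POU3F2 was the most abundant member from 12 h onward. In the order A1, A2 and B1, its level at 2 h was 12.4, 11 and 13.3 TPM, at 4 h 7.17, 8.63 and 6.35, and at 6 h 11.3, 5.82 and 9.54. At 8 h it was 6.55, 7.15 and 8.24 TPM, and at 10 h 8.32, 9.85 and 9.71. These 15 libraries all lay below 14 TPM. At 12 h the libraries stood at 34.9, 28.0 and 25.3 TPM, all above every library of 2 to 10 h. The 12 h mean was 29.4 ± 4.97 TPM (SD, n = 3) against 9.29 ± 0.846 at 10 h (SD, n = 3). Of all 15305 genes, 9.40% had a higher, non-overlapping level at 12 h than at 10 h.

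Between 14 and 24 h the POU3F2 level was uneven from one time to the next. It was 13.4, 18.2 and 28.9 TPM at 14 h, 18.5, 41.5 and 31.6 at 16 h, and 40.1, 31.1 and 41.8 at 18 h. It was 58.4, 34.4 and 58.0 TPM at 20 h, 43.2, 37.0 and 44.8 at 22 h, and 49.6, 61.3 and 82.0 at 24 h. The 14 h libraries overlapped those of 12 and 16 h. From 30 h on, all libraries were above 45 TPM. The values were 53.2, 47.9 and 45.5 TPM at 30 h, 79.9, 76.2 and 68.6 at 36 h, and 74.1, 91.3 and 53.4 at 42 h. At 48 h, A1 and A2 were at 56.6 and 87.3 TPM, and at 54 h the libraries were at 64.2, 109.9 and 78.9. They were at 69.5, 103.8 and 56.1 TPM at 60 h, 89.9, 120.2 and 117.0 at 66 h, and 92.0, 52.7 and 92.0 at 72 h. Every time from 36 to 72 h overlapped the next one, and the 72 h mean of 78.9 ± 22.7 TPM (SD, n = 3) was 92.0 without the A2 library.

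Ordered by their means, the 20 times ran from 8 h (7.31 ± 0.857 TPM, SD, n = 3) to 66 h (109 ± 16.6, SD, n = 3). Only 4 of the 19 neighbouring pairs in that order differed by more than the larger of their SDs: 66 above 54 h, 30 above 22 h, 12 above 14 h and 2 above 10 h. The others did not differ beyond their spread. The later time had the higher mean in 10 of 19 consecutive pairs. The means first crossed 50% of their maximum at 23.1 h by linear interpolation, but the 30 h mean of 48.9 TPM was below 50% again. The 3 labels taken alone first crossed 50% of their own maximum at 18.6 h (A1), 23.9 h (A2) and 22.7 h (B1). Each was below 50% again later, A1 at 22 h and A2 and B1 at 30 h. The course thus had no single time of crossing.

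The 3 windows of 4 time points, with 12 libraries each, summarise the course: 2 to 8 h (early), 18 to 24 h (first day) and 54 to 72 h (late). POU3F2 had a lowest, median and highest library of 5.82, 8.44 and 13.3 TPM early, 31.1, 44.0 and 82.0 on the first day, and 52.7, 91.0 and 120.2 late. The early window overlapped neither of the other windows, whereas the first day and late windows overlapped. Mean levels were 8.96 ± 2.53, 48.5 ± 14.4 and 87.2 ± 23.1 TPM (SD, n = 12), so the first day mean was 5.41 times and the late mean 9.73 times the early mean. As differences in log2(TPM + 1), a scale on which low genes appear to change less, the first day was higher than early by 2.30 (SE 0.144), late higher than first day by 0.84 (SE 0.144) and late higher than early by 3.14 (SE 0.144). Among 15305 genes ordered by log2 difference from the highest, POU3F2 was number 35 in first day minus early and number 37 in late minus early. In late minus first day it was number 495. As background, libraries did not overlap and were higher for 0.680% of all genes in first day minus early, 0.307% in late minus first day and 1.06% in late minus early. They did not overlap and were lower for 0.529%, 0.673% and 1.17% of genes.

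**Figure D2:**
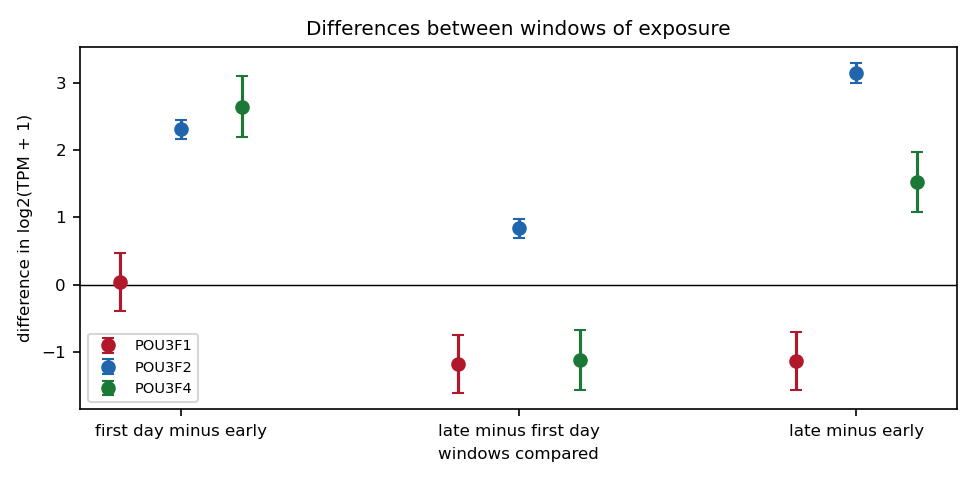
Log2(TPM + 1) differences between windows for POU3F1, POU3F2 and POU3F4, with bars of 1 SE from the fit of time-point means. The POU3F2 differences of 2.30 and 3.14 against early carry the smallest SE (0.144), and POU3F1 lies at 0.037 for first day minus early and below 0 for both late contrasts.

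POU3F1 was the more abundant of the pair POU3F1 and POU3F2 after short exposure. In the order A1, A2 and B1, it was at 20.3, 22.0 and 10.6 TPM at 2 h, 18.1, 18.1 and 0 at 4 h, and 7.39, 20.5 and 10.4 at 6 h. It was at 10.9, 15.6 and 10.9 TPM at 8 h, and at 12.1, 15.6 and 10.9 at 10 h. Its level exceeded that of POU3F2 in 12 of these 15 libraries, the exceptions being 2 h B1, 4 h B1 and 6 h A1. POU3F1 was at 7.82, 7.30 and 8.42 TPM at 12 h, and at 11.2, 10.6 and 11.4 at 14 h. From 12 h onward POU3F2 was the higher of the pair in 44 of 44 libraries.

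The second part of the first day held both high and low libraries of POU3F1. It was at 13.6, 17.5 and 11.2 TPM at 16 h, 23.2, 9.06 and 8.30 at 18 h, and 9.32, 7.36 and 5.43 at 20 h. It was at 19.7, 13.7 and 16.3 TPM at 22 h, and at 18.8, 18.9 and 4.25 at 24 h. Both 18 h and 24 h held at least 1 library above 18 TPM and 1 below 10 TPM. The later libraries were at 7.83, 4.56 and 11.4 TPM at 30 h, 15.1, 7.44 and 0 at 36 h, 8.51, 9.68 and 0 at 42 h, and 5.10 and 6.16 at 48 h. They were at 7.32, 8.95 and 2.88 TPM at 54 h, 0.88, 9.99 and 9.59 at 60 h, 7.46, 3.38 and 12.2 at 66 h, and 3.79, 0 and 3.79 at 72 h. POU3F1 was listed at 0 in 4 of 59 libraries, the 3 with under 10000 genes and 36 h B1.

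By window, POU3F1 was at 13.7 ± 6.49 TPM early (lowest 0, median 13.3, highest 22.0), 12.9 ± 6.37 on the first day (4.25, 11.5 and 23.2) and 5.85 ± 3.91 late (0, 5.56 and 12.2; all SD, n = 12). At 30 to 48 h it was at 6.89 ± 4.50 TPM (SD, n = 11). Without the 4 h B1 and 72 h A2 libraries the early mean was 15.0 ± 5.08 and the late mean 6.38 ± 3.61 (SD, n = 11). All 3 windows overlapped. The log2 difference was 0.037 (SE 0.428) for first day minus early, -1.17 (SE 0.428) for late minus first day and -1.14 (SE 0.428) for late minus early. The last value was -0.66 without label A2 and -1.80 without B1, and with a pseudocount of 5 late minus first day was -0.73. Of the 19 neighbouring pairs in the order of means, which ran from 2 h (17.6 ± 6.14 TPM, SD, n = 3) to 72 h (2.53 ± 2.19, SD, n = 3), 1 differed by more than the larger SD.

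POU3F4 was listed at 0 in 11 of the 12 libraries of 2 to 8 h, the exception being 4 h A2 at 0.36 TPM. At 10 h all 3 libraries were above 0.36 TPM (5.59, 0.45 and 2.21 in the order A1, A2 and B1). A non-overlapping, higher level at 10 h than at 8 h was found for 5.84% of all genes. The values were 1.91, 2.45 and 2.43 TPM at 12 h, 1.69, 4.84 and 7.45 at 14 h, 1.74, 12.9 and 3.07 at 16 h, and 4.34, 0 and 7.81 at 18 h. At 20 h POU3F4 was at 12.1, 9.27 and 9.45 TPM, above POU3F1 in each of the 3 libraries. It was at 4.82, 9.99 and 5.91 TPM at 22 h and at 19.4, 7.08 and 0 at 24 h. From 10 to 24 h, 22 of 24 libraries were above 0.

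The later libraries of POU3F4 were scattered. They were at 2.95, 0 and 2.30 TPM at 30 h, 8.95, 5.74 and 25.4 at 36 h, 10.7, 2.78 and 0 at 42 h, and 7.12 and 5.21 at 48 h. The single highest value of the course was thus 36 h B1, a library that listed POU3F1 at 0. POU3F4 was at 3.26, 2.42 and 0 TPM at 54 h, 5.14, 2.79 and 4.26 at 60 h, 8.13, 1.24 and 0 at 66 h, and 10.9, 0 and 0 at 72 h. It was listed at 0 in 6 of 23 libraries of 30 to 72 h, including 42 h B1 and 72 h A2. In no library of the course was POU3F4 above POU3F2.

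By window, POU3F4 was at 0.03 ± 0.104 TPM early, 7.51 ± 5.28 on the first day (lowest 0, median 7.45, highest 19.4) and 3.18 ± 3.50 late (0, 2.61 and 10.9; all SD, n = 12). No fold is given against the early window because nearly all of it was at 0. The windows overlapped because 2 first day libraries and 4 late libraries were also at 0. On the log2(TPM + 1) scale the difference was 2.64 (SE 0.451) for first day minus early, -1.12 (SE 0.451) for late minus first day and 1.52 (SE 0.451) for late minus early. For a gene this low the size rests on the pseudocount: first day minus early was 5.13 with 0.1 and 1.18 with 5. Late minus early was 3.37 and 0.59 with these pseudocounts, and 0.85 without label A1. Its means ran from 0 TPM at 2, 6 and 8 h to 13.3 ± 10.5 at 36 h (SD, n = 3), and 1 of 19 neighbouring pairs in that order differed by more than the larger SD.

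POU3F3 was at 5.89 TPM in 54 h A1 and at 3.69 TPM in 60 h B1, and was listed at 0 in the other 57 libraries. Its means were 1.96 ± 3.4 TPM at 54 h and 1.23 ± 2.13 at 60 h (SD, n = 3). No early or first day library held it. It did not pass the filter of at least 3 libraries, so no difference between windows is given for it.

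Added together, the 4 genes reached 22.7 ± 7.24 TPM early, 68.9 ± 15.0 on the first day and 97.0 ± 24.2 late (SD, n = 12). The order within that sum differed between windows. Early, POU3F1 held 55.8% ± 20.8 and POU3F2 44.1% ± 20.9 of it, and POU3F4 0.111%. On the first day POU3F2 held 70.2% ± 10.5, POU3F1 19.1% ± 8.69 and POU3F4 10.7% ± 6.88. Late, POU3F2 held 89.9% ± 7.14, POU3F1 5.79% ± 3.89, POU3F4 3.33% ± 3.54 and POU3F3 1.03% ± 2.45 (all SD, n = 12). These shares include 4 h B1 (early) and 72 h A2 (late), in which POU3F2 was the only member above 0 and so held 100%. The mean POU3F2 share was 37.5% at 10 h and 74.1% at 12 h, then 55.2% at 14 h and 60.4% at 16 h, so it did not go up in a single step. In libraries with POU3F1 above 0, the median ratio of POU3F2 to POU3F1 was 0.598 early (n = 11), 3.34 on the first day (n = 12) and 12.3 late (n = 11).

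**Figure D3:**
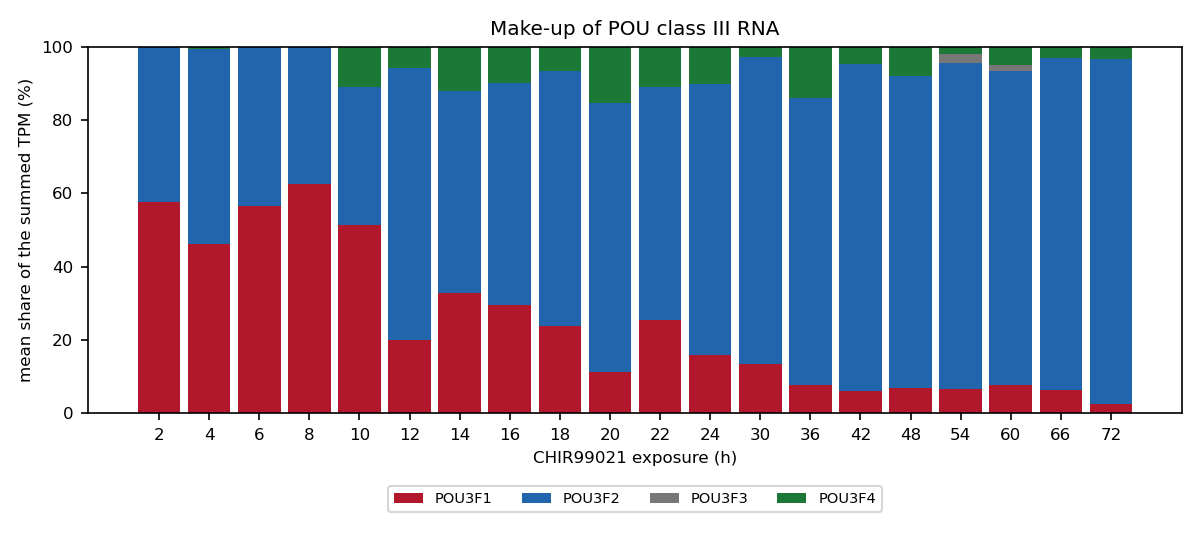
Share of the summed TPM of the 4 POU class III genes held by each, in percent, as means over the libraries of each exposure time. POU3F1 holds the largest share at 2, 6, 8 and 10 h. At 4 h POU3F2 holds 53.4% and POU3F1 46.2%, with 4 h B1 counted as 100% POU3F2. POU3F2 holds 74.1% at 12 h and 94.1% at 72 h, where 72 h A2 also counts as 100%. Before 10 h POU3F4 has a share only at 4 h (0.442%).

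The 4 genes were followed beside other genes of their biology, tested with limma on log2(TPM + 1) with Benjamini-Hochberg adjustment over all 15305 genes. At an adjusted p under 0.05, 10.5% of all genes were higher and 9.45% lower in first day minus early, 5.43% and 7.08% in late minus first day, and 14.3% and 15.8% in late minus early. In either direction that was 20.0%, 12.5% and 30.1% of genes. All 3 contrasts share windows, so their counts are not independent. Of the 12 POU genes of other classes 10 were tested, and their median log2 differences were 0.10, -0.055 and 0.054 in the 3 contrasts, beside 0.010, -0.041 and -0.042 over all genes. POU4F1 (BRN3A), a factor of sensory neurons, rose by 1.58 in first day minus early (limma adjusted p = 0.000381) and fell in late minus first day by 1.23 (adjusted p = 0.00865). Its mean levels were 0.454, 3.59 and 0.964 TPM. POU5F1B also fell in late minus first day (limma adjusted p = 0.0312), but it is a near-identical copy of POU5F1 and its value is uncertain. POU4F2 (BRN3B) fell in first day minus early (limma adjusted p = 0.0274) and in late minus early (adjusted p = 0.0187), from 0.801 TPM to 0, and was above 0 in only 8 of 59 libraries. POU2F1 (OCT1), which is made in most cells, was at 36.8, 42.0 and 45.6 TPM and passed none of the 3 contrasts, though it passed the test over the whole course (limma adjusted p = 0.00432). POU5F1 (OCT4) was at 15.2, 13.1 and 7.15 TPM (late minus early -0.90, adjusted p = 0.109). The call of POU4F1 in late minus first day was lost without A1 or B1. That of POU5F1B was lost without A1 or A2, with quantile normalization and with windows of 2 time points.

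SOX proteins are the partners with which class III POU factors bind many neural enhancers. Of 8 SOX genes 6 were tested. In first day minus early 4 rose and 1 fell, in late minus first day 2 rose and 1 fell, and in late minus early 3 rose and 1 fell, with medians of 0.63, 0.23 and 0.27. SOX1 was at 1.30, 7.52 and 19.1 TPM in the 3 windows and SOX2 at 40.1, 111 and 141, and late minus early was 3.08 (limma adjusted p = 3.84e-11) and 2.12 (adjusted p = 8.96e-08). SOX3 had another course, with 74.9, 135 and 73.2 TPM: it rose by 0.88 and then fell by 0.92 (limma adjusted p = 5.04e-06 and 3.1e-06). SOX21, which counteracts SOXB1 factors, was at 11.1, 0.277 and 5.50 TPM and fell by 2.96 in first day minus early (limma adjusted p = 4.02e-07). SOX4 was at 230, 202 and 208 TPM and passed none of the 3 contrasts, though it passed the test over the whole course (limma adjusted p = 0.000654). The increase of SOX1 in late minus first day (1.00, limma adjusted p = 0.0233) was lost under 6 of 13 alternatives, and without any 1 of the 3 labels.

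Of 10 genes tied to class III POU factors in other work, 8 were tested, and 2 rose and 1 fell in first day minus early, 1 and 2 in late minus first day, and 4 and 1 in late minus early. NES, the intermediate filament of neural progenitors whose enhancer binds these factors, was at 157, 254 and 285 TPM (late minus early 0.80, limma adjusted p = 2.25e-11). FABP7, the brain fatty acid carrier, was at 3.83 ± 4.21, 8.53 ± 9.39 and 51.3 ± 70.8 TPM (SD, n = 12; late minus early 3.05, limma adjusted p = 2.6e-05). RELN, which encodes reelin, rose by 2.99 and then fell by 1.61 (limma adjusted p = 1.67e-17 and 1.7e-09), with 50.7, 392 and 134 TPM. MITF, a pigment cell factor that POU3F2 represses in melanoma, was at 18.8, 3.31 and 0.753 TPM and fell by 3.49 in late minus early (limma adjusted p = 8.03e-16). DAB1, the intracellular adaptor of reelin, rose by 1.11 in late minus early (limma adjusted p = 0.0259), a call lost without A2 and with a pseudocount of 5. The Notch ligand DLL1 was at 48.4, 46.2 and 35.6 TPM and the CDK5 activator CDK5R1 at 6.70, 6.58 and 9.33, and neither passed a test. CRH and EGR2 were too low to be tested.

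Factors used with POU3F2 to make neurons from other cells were also read, and 3 are given here. NEUROG2, a proneural factor, was at 3.87, 6.44 and 29 TPM (late minus early 3.03, limma adjusted p = 7.07e-12). NEUROD1, which promotes neuronal differentiation, was at 0.108, 1.76 and 2.63 TPM (1.25, limma adjusted p = 0.00537). This call was lost without A1 and without the 6, 30 and 54 h time points. With windows of 2 time points, the calls of NEUROD1 and DAB1, both calls of POU4F2, and that of POU4F1 in first day minus early were lost. The call of POU4F2 in late minus early was also lost with quantile normalization. ZIC1, a zinc finger factor of the dorsal neural tube, was at 71.8, 116 and 64.3 TPM. It rose by 0.71 in first day minus early (limma adjusted p = 0.000944) and fell by 0.83 in late minus first day (adjusted p = 0.000199), and late minus early was -0.11 (adjusted p = 0.645). The first of these calls was lost with windows of 2 time points, where the value was -0.047, and the second without A1.

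**Figure D4:**
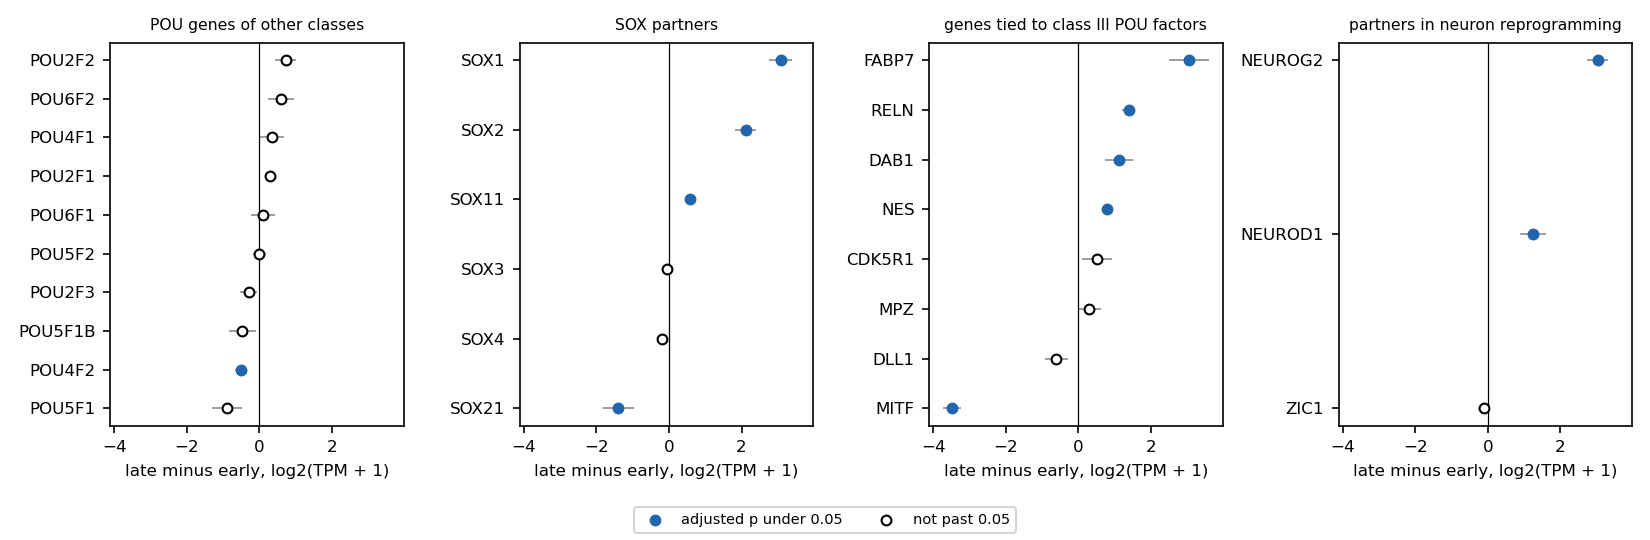
Late minus early difference on the log2(TPM + 1) scale, with 1 SE, for tested genes related to class III POU factors, in 4 panels by list; the panel of neuron reprogramming partners shows the 3 genes given in the text. Filled points passed a limma adjusted p of 0.05: SOX1 (3.08), FABP7 (3.05) and NEUROG2 (3.03) lie farthest to the right and MITF (-3.49) farthest to the left.

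Markers of cell types that can hold these factors moved over the same exposures, and their part in the POU levels was not tested. Of 12 neuron markers (TUBB3, DCX, STMN2, ELAVL3, ELAVL4, MAP2, NEFL, NEFM, SNAP25, SYT1, GAP43 and INA) 9 rose and none fell in late minus early, where the test called 14.3% of genes higher. Their summed TPM in a library ranged from 220 to 381 early, 439 to 609 on the first day and 301 to 651 late. Of 10 surface ectoderm and epithelium markers 8 were tested and all 8 fell in first day minus early. Their sum ranged from 1047 to 2601 TPM early and 335 to 891 on the first day, while KRT5 and KRT14 were above 0 in 1 and 2 of 59 libraries. Of 7 tested Schwann cell and neural crest markers 1 rose and 2 fell in late minus early, with sums of 23.3 to 78.0 TPM early and 20.1 to 141.7 late, and SOX10 was above 0 in 5 libraries. Of 8 hypothalamic markers only ARNT2 was tested. It was at 13.5, 23.0 and 22.2 TPM and rose by 0.84 in late minus early (limma adjusted p = 0.00312), a call lost without B1. NKX2-1, AVP and OXT were listed at 0 in all 59 libraries. Of 6 otic markers 4 were tested and 2 fell in late minus early, DLX5 (-5.95, limma adjusted p = 1.9e-21) and EYA1 (-1.08, adjusted p = 0.00853, lost without A1). DLX5 was at 73.7, 7.55 and 0.151 TPM. The otic sum ranged from 32.6 to 132.4 TPM early, 2.72 to 28.3 on the first day and 0 to 3.69 late, and OC90 was listed at 0 in all libraries. Of 8 pluripotency markers 1 rose (DNMT3B) and 2 fell (LIN28A and ZFP42) in late minus early, beside 14.3% and 15.8% of all genes. Their sums were 1497 to 3243 TPM early and 922 to 1422 late. Most of that was LIN28A, with means of 1760 TPM early and 941 late. NANOG was at 2.17 and 0.949 TPM and TDGF1 at 1.65 and 0.468.

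The genes whose courses were most like each member were found by Pearson's r over the 20 time-point means of log2(TPM + 1), among 13135 genes with a highest mean of at least 5 TPM. All genes share the same libraries, so r is a description. For POU3F2 the highest were GLI2, a transcription factor of Hedgehog signalling (r = 0.967), ELAVL3, a neuronal RNA-binding protein (0.964), VANGL2, a planar cell polarity protein (0.961), TMEM47 (0.960) and IGDCC3 (0.960). GLI2 was at 2.01, 10.3 and 14.9 TPM in the 3 windows and VANGL2 at 83.6, 226 and 340. The lowest were TFEC, a relative of MITF (r = -0.954), VIL1, the villin of epithelial brush borders (-0.952), and PLA2G12B (-0.947). TFEC was at 35.3, 3.41 and 0.393 TPM.

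For POU3F4 the most alike were ZIC4 (r = 0.866), NDNF (0.855), RELN (0.854), FAT4 (0.837) and VLDLR (0.835). ZIC4 was at 2.30, 8.49 and 4.26 TPM, NDNF at 11.4, 61.6 and 35.8, RELN at 50.7, 392 and 134, and VLDLR, a receptor of reelin, at 50.2, 148 and 83.3. The least alike were GJA1, the gap junction protein of many tissues (r = -0.860), SH3RF2 (-0.825) and CD164 (-0.812). For POU3F1 the most alike were MTTP, which loads lipid onto lipoproteins (r = 0.858), COQ10A (0.849), HOMER1 (0.842), RGS9BP (0.840) and SLC23A1 (0.831), and the least alike PTCHD4 (-0.799), KCNH7 (-0.772) and ATF3 (-0.761). MTTP was at 15.6, 12.7 and 1.40 TPM and PTCHD4 at 6.41, 5.69 and 33.8. Between members, r over the 20 means was -0.570 for POU3F1 and POU3F2, -0.152 for POU3F1 and POU3F4, and 0.611 for POU3F2 and POU3F4.

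**Figure D5:**
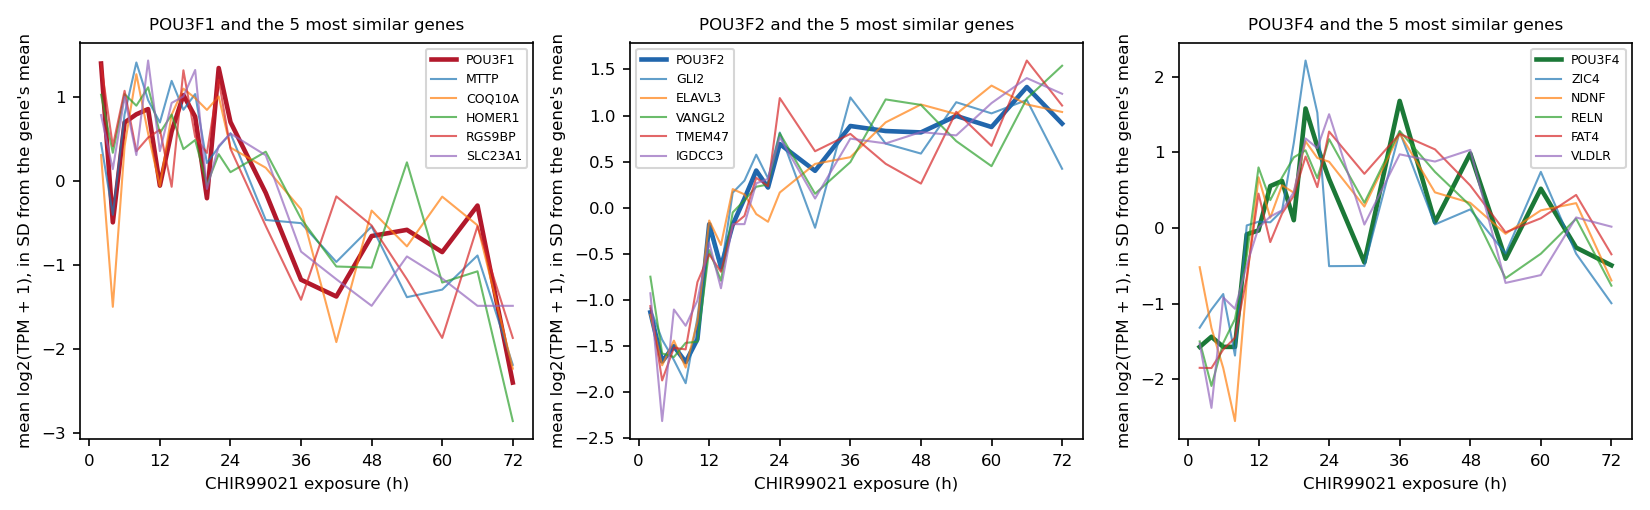
Time-point means of log2(TPM + 1), of POU3F1, POU3F2 and POU3F4 against hours of CHIR99021, each with the 5 genes most like it and scaled to SDs from the gene's own mean. The genes beside POU3F2 follow it closely (r between 0.960 and 0.967), and those beside POU3F1 and POU3F4 less so (highest r 0.858 and 0.866).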

How the data were processed

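Messenger RNA was sequenced as single reads of 51 bases from 100 ng of total RNA per library, after 18 PCR cycles, per the labels' protocols. The deposited TPM were made by the authors with CASAVA 1.8.2, Bowtie 0.12.8 and RSEM 1.2.3 on hg19, per the submitters' processing notes. Which gene annotation they used was not given in the sources used here. Each library's TPM summed to about 1000000, so depth is unknown.

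Groups were taken from the labelled hours. The analysis used limma 3.58.1 in R 4.3.3 on log2(TPM + 1) (moderated tests with a trend, Benjamini-Hochberg adjustment, threshold 0.05) for genes with at least 1 TPM in at least 3 libraries. Differences between windows came from a model with 1 mean per exposure time (39 residual df), and change over the course was tested on a natural spline with 4 df, in which 36.8% of genes passed. The fits were tested on simulated data. Members and lists were chosen with earlier results of these data known. Genes named by likeness were the 5 highest and 3 lowest r per member with a mean of at least 5 TPM at some time, and list genes are described by counts and examples. Alternatives varied the pseudocount, filter, scaling, replicate block, windows, spline and libraries. Promoters came from RefSeq and gene models from GENCODE v29, both on GRCh38, and no coordinate was mixed with the hg19 values. A gene of the lists is not reported here.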

Additional observations from a re-analysis of the deposited data

How the results depend on the processing

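The log2 differences of POU3F2 kept their direction under all 13 alternatives: 1.92 to 2.42 for first day minus early, 0.65 to 0.96 for late minus first day and 2.70 to 3.27 for late minus early, with 1.92 and 2.70 at a pseudocount of 5. Those of POU3F4 also kept their direction but moved with the pseudocount: first day minus early was 5.13 at 0.1 and 1.18 at 5, and late minus early 3.37 at 0.1. POU3F1 lay between -1.65 and -0.73 for late minus first day and between -1.80 and -0.66 for late minus early, and between -0.32 and 0.40 for first day minus early. POU3F3 could not be fitted with a filter on low values. Leaving out each label in turn gave 3232 to 5291 genes changing over the course (5629 with all libraries), 1594 to 2402 in first day minus early (3057), 908 to 1757 in late minus first day (1915) and 2956 to 4227 in late minus early (4606), with fewer libraries in each fit. Windows of 2 time points gave 1802 in first day minus early and turned ZIC1 to -0.047 there. Without the libraries with under 10000 genes, 2873 passed in late minus first day. Among results for single list genes, 89 lost and 50 gained a call, and 1 that had a call changed sign. The other 2605 kept their side of the threshold, but differences without a call could change sign among them. A replicate block gave 5616, 3050, 1915 and 4610 genes for the course and the 3 contrasts in the order above. The labels A1, A2 and B1 were not taken to pair the libraries: 8 of 551 pairs with one label at different times had deviations correlated above 0.1 (mean 0.0066, against -0.0029 between labels). That 32 of 59 libraries correlated best with their own label is a hint of pairing from the data and not from the design. TPM limit what low values of POU3F1, POU3F3 and POU3F4 can show, since the reads behind them are unknown.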
